A study of Mus musculus with 12 samples.

Results

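The 47 genes described here encode proteins of mitosis and chromosome segregation, and they were followed in 12 mouse hearts in which Lemd2, a gene for a LEM domain protein of the inner nuclear membrane, was intact, mutated or deleted. They were chosen by symbol, and all 47 were found among the 24062 gene symbols of the RNA-Seq count table. RNA-Seq had been performed on whole hearts, with 1 library per mouse and 3 mice per group, to compare transcript levels between mutant and control hearts. Adult WT and adult KI/KI mice were 2 months old, and KI/KI mice carried the Lemd2 c.T38>G allele on both chromosomes in all cells. The floxed and cKO mice were at postnatal day 1 (P1). The floxed controls carried loxP sites around the first exon of Lemd2 and no Cre, and in cKO mice Cre was driven by the Myh6 promoter, which is active in cardiomyocytes, so that the other cells of the heart kept the gene. The founders of both alleles came from B6C3F1 zygotes and were bred to C57BL/6N mice. Hearts are called by the numbers of their labels, 1 to 3 for controls and 4 to 6 for mutants.

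Entry into mitosis is driven by the kinase Cdk1 bound to a B-type cyclin. Chromosomes are then compacted by condensin, attached to spindle microtubules at the kinetochore, which is built on centromeric chromatin, and watched over by the spindle checkpoint, until Cdc20 and the anaphase-promoting complex release the chromatids and the cell is cut at its middle. The mouse heart holds many dividing cells around birth and few in the adult, and most genes of this set are transcribed only in cells that approach or pass through mitosis. In a whole heart, a higher share of such cells and more RNA per cell cannot be told apart.

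Many mitotic promoters carry CCAAT boxes, to which NF-Y binds, and near the start of transcription a TTTGAA or TTCGAA element, the core of the cell cycle genes homology region, through which the MuvB complex acts. RefSeq promoter windows of GRCm38.p6, from 250 bases before to 50 bases after the annotated start, were at hand for 38 of the 47 genes. Ube2c and 6 other genes hold both elements in the 110 bases before the start. The windows of these 6, without Ube2c, are shown over that stretch. They are written 5′ to 3′ on the strand of the gene, with both elements in capitals on either strand. An element on the other strand reads as TTCAAA where it is the first of these, or as ATTGG where it is the CCAAT box.
Cdk1, chr10:69352913-69353022, minus strand: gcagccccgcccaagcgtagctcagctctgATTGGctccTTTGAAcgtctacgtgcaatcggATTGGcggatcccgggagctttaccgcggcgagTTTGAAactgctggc
Cdc20, chr4:118437344-118437453, minus strand: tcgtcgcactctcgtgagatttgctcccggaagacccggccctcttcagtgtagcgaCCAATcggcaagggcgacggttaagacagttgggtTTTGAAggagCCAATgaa
Espl1, chr15:102296183-102296292, plus strand: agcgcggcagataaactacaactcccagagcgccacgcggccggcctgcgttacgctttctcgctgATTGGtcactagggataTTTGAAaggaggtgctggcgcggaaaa
Kif11, chr19:37376272-37376381, plus strand: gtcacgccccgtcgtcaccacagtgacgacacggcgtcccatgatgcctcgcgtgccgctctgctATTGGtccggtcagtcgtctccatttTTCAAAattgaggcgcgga
Prc1, chr7:80294366-80294475, plus strand: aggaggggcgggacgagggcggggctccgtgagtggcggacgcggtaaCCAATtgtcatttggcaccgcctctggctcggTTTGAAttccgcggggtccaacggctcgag
Top2a, chr11:99024190-99024299, minus strand: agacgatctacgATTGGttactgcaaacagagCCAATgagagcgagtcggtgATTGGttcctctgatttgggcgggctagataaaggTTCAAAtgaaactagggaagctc

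Over the whole window and on either strand, TTTGAA or TTCGAA was present in 30 of the 38 genes with a window (78.9%, exact 95% interval 62.7% to 90.4%) and in 21.7% of all 27025 genes in the table. CCAAT was present in 28 (73.7%) and in 41.1% of all genes, and 2 or more copies of it in 19 (50%) and in 13.3% of all genes. Both elements together were found in 26 genes (68.4%), where the share over all genes was 8.61%. The 8 genes without TTTGAA or TTCGAA in the window were Birc5, Ccnb1, Cenpe, Mad2l1, Ncaph, Nuf2, Nusap1 and Pttg1. These matches are descriptions of letters and were given no test.

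Libraries held between 37063669 and 44789753 counts. At these depths 3 counts, taken as the floor, correspond to at most 0.0965 CPM, the count scaled to the TMM-normalized library size, and the floor covers counting error only. The floxed hearts held 24.3, 24.97 and 25.4 CPM of Lemd2 and the cKO hearts 6.59, 13.1 and 11.3 CPM, without overlap. Lemd2 levels were 32.0, 34.8 and 32.9 CPM in WT hearts and 25.6, 25.2 and 24.8 CPM in KI/KI hearts. Cardiomyocyte markers were abundant in every library. The heart cKO 4 had 0.0798 CPM summed over Y-linked genes where the other 11 hearts had 223 CPM or more. Transcripts of lung epithelium stood out in WT 3, KI/KI 4, floxed 1, floxed 2 and cKO 4, at 42.2 to 416 CPM in sum, against 0.366 to 21.5 CPM in the other 7 hearts. Summed thymocyte markers stayed at or below 1.02 CPM in every heart.

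The comparison of cKO with floxed hearts asked what changed at P1 after Lemd2 was lost from cardiomyocytes. Part of the mitotic genes were higher in cKO hearts, with called genes in 7 of the 8 roles. All 47 passed the filter on low counts, 46 had a positive log2 fold change, and the median was 1.18 where that of all 15317 tested genes was 0.00. Genes were called where the adjusted p in edgeR stayed below 0.05 and the level changed more than 2-fold. The study states these thresholds for its genome-wide analysis, where it used DESeq2. By this rule in edgeR 20 of the 47 rose and none fell, beside 2.85% of all tested genes called higher. With the adjusted p alone 21 rose, beside 9.32% of all genes. In 34 of the 47 the 3 cKO hearts lay above all 3 floxed hearts, as they did in 19.9% of all genes. DESeq2, the tool the study names, gave an adjusted p under 0.05 with a higher level for 37 of the 47, beside 13.2% of all genes. With the 2-fold threshold added, DESeq2 called 30 of the 47, beside 3.34% of all genes called higher.

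The heart-by-heart values show 1 cKO heart far above the others. The heart cKO 6 had the highest level of all 6 P1 hearts in 46 of the 47 genes, where it was the highest in 23.7% of all tested genes. Relative to the mean of the floxed hearts, the median level over the 47 genes was 1.42 in cKO 4, 1.78 in cKO 5 and 3.54 in cKO 6. The exception was Pttg1, at 24.7 CPM in cKO 6 and 28.0 CPM in floxed 3. cKO 4 was the lowest cKO heart in 46 genes, Bub1 being the exception. Epicardial and mesothelial markers were lowest in cKO 6, at 30.1 CPM in sum against 55.8 to 109 CPM in the other P1 hearts. Of this list only Wt1 was not lowest there (20.0 CPM). Endothelial markers were highest in cKO 6 as a list, and cardiomyocyte markers did not single it out in 1 direction. The 6 endothelial markers summed to 1563 CPM in cKO 6 and to 1089 to 1282 CPM in the other P1 hearts. Their mean log2 CPM was 7.73 in cKO 6 and 7.31 to 7.63 in the others. Of these markers, Cdh5, Kdr and Tie1 were highest in cKO 6, at 558, 309.9 and 147 CPM. Pecam1 was at 334 CPM there and at 336 CPM in cKO 4, and Tek at 138 CPM there and 164 CPM in floxed 2. Emcn was lower in cKO 6 (76.8 CPM) than in cKO 4 and cKO 5 (219 and 173 CPM). It was above the floxed hearts (57.7 to 68.0 CPM). The 8 cardiomyocyte markers summed to 40823 CPM in cKO 6, between 38560 CPM in cKO 4 and 42727 CPM in cKO 5, and to 42680 to 50872 CPM in floxed hearts. Among them Tnnt2 was lowest of the P1 hearts in cKO 6 (4820 CPM) and Mybpc3 highest (3983 CPM). Between the groups, fibroblast markers summed to 6827 to 7507 CPM in cKO and 4985 to 5579 CPM in floxed hearts, macrophage markers to 129 to 237 CPM and 101 to 121 CPM, and markers of mural cells to 1818 to 3028 CPM and 1394 to 1788 CPM. The 3 sums did not overlap between the groups. By these sums, fibroblast markers were highest in cKO 6, macrophage markers in cKO 4 and mural markers in cKO 5. The mean log2 CPM of the fibroblast list was instead highest in cKO 4 (8.88, against 8.79 in cKO 6). Of this list, Tcf21, Col1a1 and Postn rose in cKO hearts with an adjusted p under 0.05, while Pdgfra and Dcn had log2 fold changes of -0.16 and -0.14. In cKO 6 Pdgfra was lowest of the P1 hearts (66.6 CPM) and Dcn highest (339 CPM). Of the mural list, Pdgfrb, Cspg4 and Tagln rose in cKO hearts and Myh11 fell, each with an adjusted p under 0.05. The part of these cell types in the levels of the mitotic genes was not tested.

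**Figure D1:**
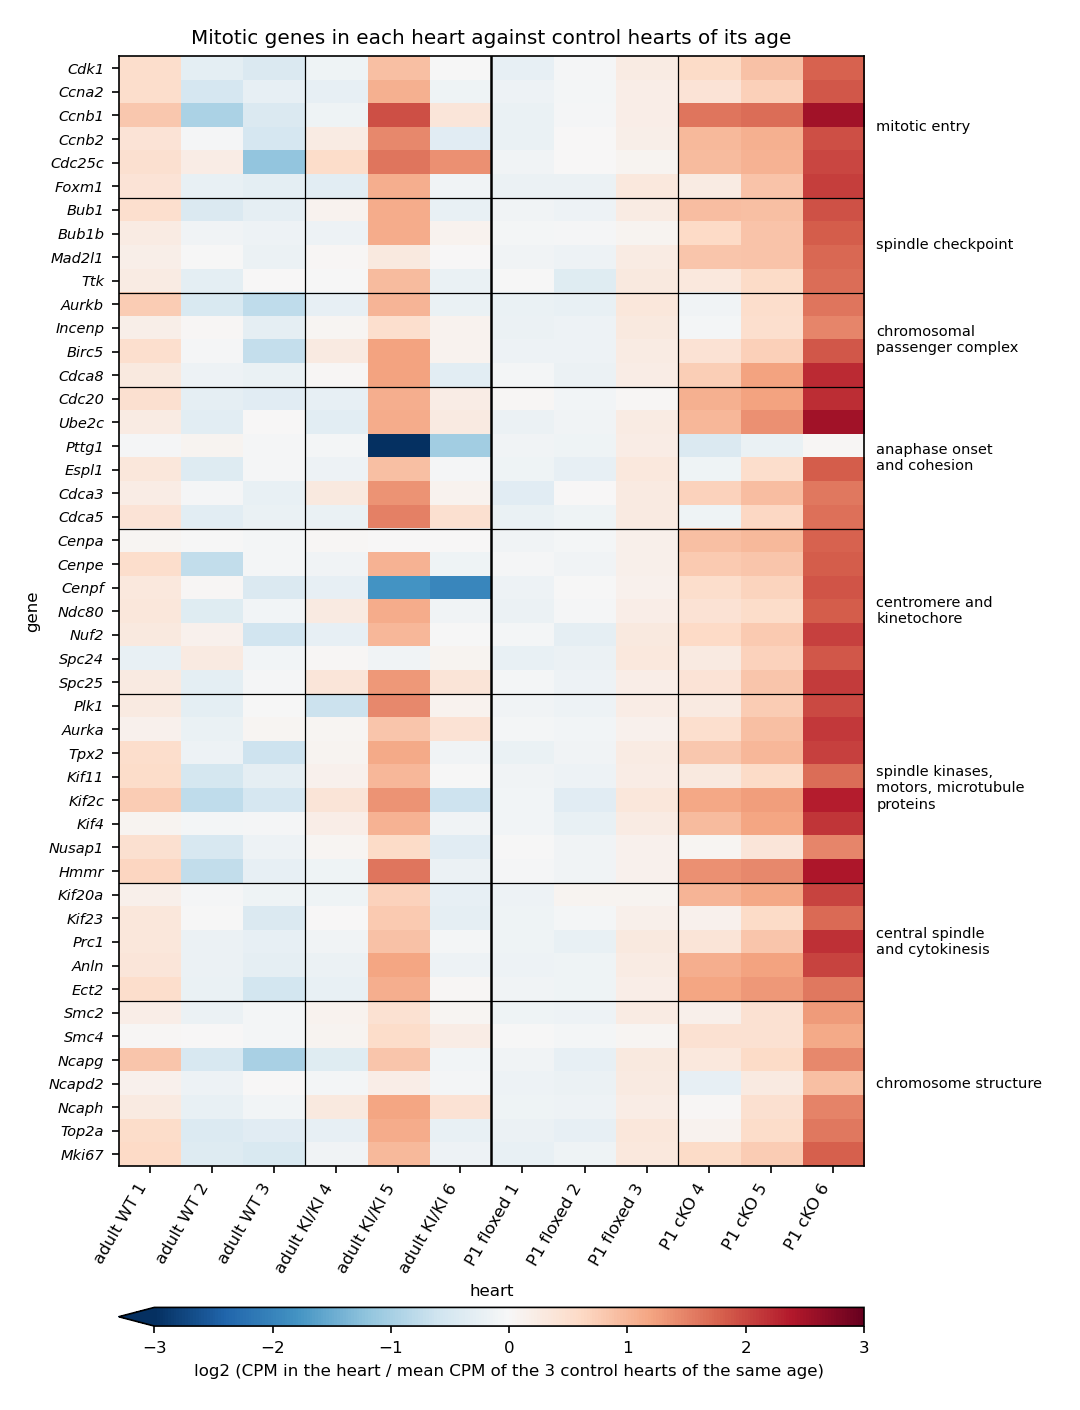
Heat map of the 47 mitotic genes (rows, grouped by role) in the 12 hearts (columns), colored by the log2 ratio of the CPM in each heart to the mean CPM of the 3 control hearts of the same age. cKO 6 and KI/KI 5 stand out as columns of higher values, while Pttg1 and Cenpf are low in KI/KI 5 and KI/KI 6. Values below -3 take the darkest blue.

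Among genes of mitotic entry, 4 of 6 were called higher. Ccnb1 (chr13:100778650-100786570 in GRCm38), which encodes cyclin B1, was at 13.2, 14.9 and 17.4 CPM in the floxed hearts and at 46.5, 48.4 and 87.3 CPM in cKO hearts, a log2 fold change of 1.99 (SE 0.25, adjusted p = 0.00704). Every cKO heart lay at more than 2 times the highest floxed heart, and this was the largest change of the 47. Ccnb2, the gene of cyclin B2, was at 18.1, 21.3 and 23.5 CPM and at 41.0, 43.7 and 80.4 CPM (log2 fold change 1.38, SE 0.26, adjusted p = 0.0171). Cdk1 itself was at 27.6, 31.8 and 38.9 CPM in the floxed hearts and at 48.7, 60.7 and 112 CPM in cKO hearts (log2 fold change 1.16, SE 0.29, adjusted p = 0.0395). For both genes the groups did not overlap, and cKO 6 lay well above cKO 4 and cKO 5. Cdc25c, the phosphatase that activates Cdk1, was at 4.85, 5.28 and 5.501 CPM and at 10.1, 10.8 and 21.0 CPM, a log2 fold change of 1.40 (SE 0.29, adjusted p = 0.0222). Ccna2, the gene of cyclin A2, and Foxm1, a transcription factor of mitotic genes, had log2 fold changes of 1.13 and 1.25 and missed the threshold. Foxm1 was at 24.7 CPM in cKO 4, inside the floxed range of 18.3 to 25.9 CPM.

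Spindle checkpoint genes were called in 3 of 4 cases. Bub1, a checkpoint kinase, was at 20.1, 19.4 and 25.6 CPM in the floxed hearts and at 40.9, 40.5 and 82.1 CPM in cKO hearts (log2 fold change 1.32, SE 0.28, adjusted p = 0.0244). Mad2l1, which encodes the checkpoint protein Mad2, was at 20.7, 20.0 and 26.5 CPM and at 39.6, 40.4 and 73.4 CPM (log2 fold change 1.18, SE 0.25, adjusted p = 0.0233). Bub1b, the gene of BubR1, was at 31.9, 32.0 and 35.2 CPM and at 50.1, 59.6 and 117 CPM (log2 fold change 1.18, SE 0.29, adjusted p = 0.036). In each of these genes cKO 4 and cKO 5 were close to each other and above every floxed heart. Ttk, which encodes the kinase Mps1, had a log2 fold change of 0.97 (SE 0.36) and an adjusted p of 0.106.

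The chromosomal passenger complex, which corrects faulty attachments and guides cytokinesis, had 1 of its 4 genes called. Cdca8, the gene of borealin, was at 11.9, 10.995 and 14.5 CPM in the floxed hearts and at 20.9, 28.7 and 58.8 CPM in cKO hearts (log2 fold change 1.52, SE 0.36, adjusted p = 0.0322). Birc5, the gene of survivin, was at 15.9, 15.8 and 20.9 CPM and at 23.8, 28.9 and 63.7 CPM, with an adjusted p of 0.0693. Incenp, the scaffold of the complex, was at 22.3, 22.4 and 30.6 CPM and at 24.2, 35.4 and 69.8 CPM, with an adjusted p of 0.174. Only in Cdca8 and Birc5 did the groups of these 4 genes not overlap, since cKO 4 lay within the floxed range for Incenp and for Aurkb, the kinase of the complex, at 9.72 CPM against 9.04 to 13.3 CPM.

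Genes of anaphase onset and cohesion split. Cdc20, the activator of the anaphase-promoting complex, was at 16.8, 15.6 and 16.8 CPM in the floxed hearts and at 34.5, 37.7 and 75.8 CPM in cKO hearts (log2 fold change 1.58, SE 0.29, adjusted p = 0.0162). Ube2c, the ubiquitin-conjugating enzyme that works with this complex, was at 18.8, 19.6 and 24.9 CPM and at 42.2, 54.7 and 121 CPM (log2 fold change 1.77, SE 0.37, adjusted p = 0.0238). Cdca3, a cell division cycle-associated gene, was counted in this role by the grouping used here. It was at 12.9, 16.4 and 19.8 CPM and at 26.4, 31.1 and 49.1 CPM (log2 fold change 1.11, SE 0.25, adjusted p = 0.0273). These 3 genes rose without overlap between the groups. The other members did not pass. Espl1, the gene of separase, was at 11.72 CPM in cKO 4 and at 44.5 CPM in cKO 6, where the floxed hearts had 10.8 to 15.7 CPM. Cdca5, the gene of sororin, was at 3.87, 6.48 and 13.3 CPM in cKO hearts and at 3.68 to 5.10 CPM in floxed hearts. Pttg1, the gene of securin, which holds separase inactive, was at 22.4, 21.9 and 28.0 CPM in the floxed hearts and at 17.8, 21.0 and 24.7 CPM in cKO hearts. It had the single negative log2 fold change of the 47, -0.19 (SE 0.14, adjusted p = 0.371).

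At the centromere and kinetochore all 7 genes had log2 fold changes between 1.06 and 1.29, and 2 were called. Cenpa, the histone H3 variant of centromeres, was at 24.8, 25.4 and 29.5 CPM in the floxed hearts and at 49.3, 51.9 and 90.2 CPM in cKO hearts (log2 fold change 1.26, SE 0.23, adjusted p = 0.0154). Cenpe, a kinesin of the kinetochore, was at 22.5, 21.5 and 25.6 CPM and at 39.8, 41.2 and 82.1 CPM (log2 fold change 1.22, SE 0.27, adjusted p = 0.0282). Cenpf, a large microtubule-binding protein of the kinetochore, was at 30.2, 33.1 and 36.6 CPM and at 47.7, 52.8 and 124 CPM, with an adjusted p of 0.0613. Ndc80, Nuf2, Spc24 and Spc25 encode the 4 subunits of the Ndc80 complex, which grips the microtubule. Their log2 fold changes were 1.06, 1.29, 1.09 and 1.28, with adjusted p-values between 0.0615 and 0.104.

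Of the 8 spindle kinases, motors and microtubule proteins, 4 were called. Hmmr, a microtubule-associated protein of the spindle, was at 27.4, 26.2 and 31.0 CPM in the floxed hearts and at 72.5, 76.9 and 151 CPM in cKO hearts (log2 fold change 1.82, SE 0.27, adjusted p = 0.0101). Kif2c, a kinesin that shortens microtubules, was at 9.25, 7.78 and 12.4 CPM and at 21.8, 23.4 and 49.9 CPM (log2 fold change 1.68, SE 0.34, adjusted p = 0.0217). Kif4, a kinesin bound to chromosomes, was at 21.1, 19.1 and 26.3 CPM and at 42.6, 50.1 and 97.9 CPM (log2 fold change 1.51, SE 0.30, adjusted p = 0.0214). The fourth was Tpx2, a spindle assembly factor, with a log2 fold change of 1.39 (adjusted p = 0.0305). The kinase genes Plk1 and Aurka had log2 fold changes of 1.18 and 1.33 and adjusted p-values of 0.089 and 0.0558. Kif11, the kinesin that separates the spindle poles, and Nusap1 had log2 fold changes of 0.97 and 0.75 and were not called.

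In the central spindle and at cytokinesis, 3 of 5 genes were called. Ect2 (chr3:27097222-27153878), the exchange factor that activates RhoA where the cell divides, was at 18.7, 18.4 and 22.8 CPM in the floxed hearts and at 44.9, 48.8 and 59.7 CPM in cKO hearts (log2 fold change 1.35, SE 0.13, adjusted p = 0.00483). It had the smallest p of the 47 genes, and cKO 6 was at 1.27 times the mean of cKO 4 and cKO 5, where the median of the 47 genes was 2.22. Anln, the gene of the contractile ring scaffold anillin, was at 43.8, 44.5 and 58.0 CPM and at 103, 112 and 199 CPM (log2 fold change 1.49, SE 0.25, adjusted p = 0.013). Kif20a, a kinesin of the central spindle, was at 24.8, 29.2 and 29.2 CPM and at 56.6, 62.3 and 112 CPM (log2 fold change 1.47, SE 0.25, adjusted p = 0.0136). Its exons share 1271 bases with those of Cdc23 on the other strand, and since the strand setting of the counting is not given in the sources used here, reads of these genes may not be separable. The same holds for 592 bases that Ube2c shares with Tnnc2, 832 bases of Kif4 with Pdzd11, 911 bases of Prc1 with Rccd1, 510 bases of Ccna2 with Exosc9 and 944 bases of Ncapg with Lcorl. Prc1, the microtubule bundler of the central spindle, was at 64.9, 88.5 and 225 CPM in cKO hearts and at 42.3 to 60.3 CPM in floxed hearts. Its adjusted p was 0.0756 with a log2 fold change of 1.34, and Kif23 had 0.94.

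Chromosome structure genes had the smallest shifts, with a median log2 fold change of 0.79 and no gene called. Smc4, an ATPase subunit of condensin, was at 166, 161 and 175 CPM in the floxed hearts and at 229, 231 and 369.9 CPM in cKO hearts. Its adjusted p was 0.0368, with a log2 fold change of 0.72 (SE 0.18), which corresponds to less than a 2-fold rise. Mki67, the gene of the proliferation marker Ki-67, which coats mitotic chromosomes, was at 99.8, 107 and 145 CPM and at 173, 199 and 409.5 CPM. Its log2 fold change was 1.14 (SE 0.32), and its adjusted p of 0.0514 missed the threshold, while DESeq2 gave 0.00166. The study reported the other direction for Ki67 staining, with reduced proliferation in cKO hearts. That measure is of protein in stained sections, while the values here are RNA of whole hearts. Ncapg, a condensin I subunit, was at 11.4, 10.3 and 14.99 CPM and at 15.2, 18.2 and 33.0 CPM, with an adjusted p of 0.0899. Top2a, the topoisomerase that untangles chromatids, was at 109, 104 and 154 CPM and at 131, 179 and 368 CPM, with overlap. Smc2, Ncaph and Ncapd2 had log2 fold changes of 0.70, 0.79 and 0.38 and were not called.

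**Figure D2:**
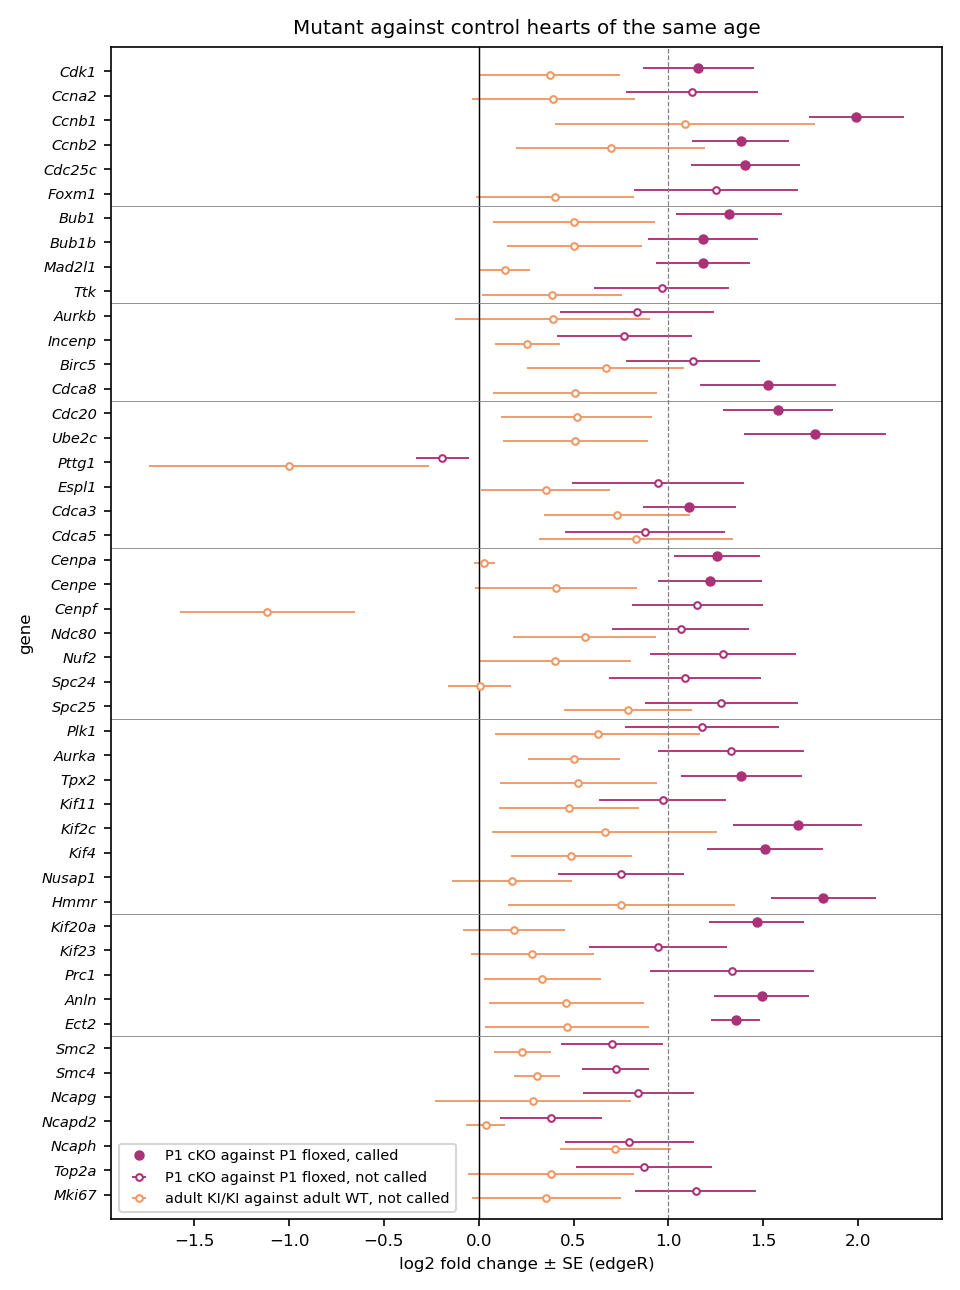
Log2 fold changes ± SE from edgeR for each of the 47 genes in cKO against floxed hearts (purple) and KI/KI against WT hearts (orange), with 3 hearts per group, where filled symbols mark called genes and the dashed line a 2-fold rise. The 20 called genes are all in the cKO comparison, and Pttg1 lies left of 0 in both comparisons. Cdc25c has no orange symbol because it did not pass the filter in adult hearts.

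The number of calls depended on single hearts. Without cKO 6 the median log2 fold change was 0.64, and 11 of the 47 genes were called higher, beside 3.83% of all tested genes. These were Ccnb1, Ccnb2, Cdc25c, Cdc20, Ube2c, Kif2c, Kif4, Hmmr, Kif20a, Anln and Ect2. Without cKO 4 there were 33 calls, beside 2.51% of all genes, and without cKO 5 there were 9, beside 1.01%. Without floxed 1, floxed 2 or floxed 3 the calls numbered 1, 2 and 13, where the share of all tested genes called higher was 0.37%, 0.95% and 2.10%. In each of these fits 46 of the 47 log2 fold changes were positive. Ect2 was called in all 6 of them and Ccnb1 in 5. With the Y-linked level of each heart as a covariate, 30 genes were called, beside 2.31% of all tested genes called higher, and the median was 1.42. Only cKO 4, the lowest cKO heart in most members, lacked Y-linked transcripts. This covariate therefore mainly marks cKO 4 and cannot be told apart from leaving that heart out.

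The genes fell apart by how far cKO 4 took part in the rise. In 20 genes cKO 4 was more than 1.5 times the floxed mean, led by Ccnb1 (3.06), Hmmr (2.57), Ect2 (2.25), Kif2c (2.22), Anln (2.11) and Cdc20 (2.11). In 13 genes cKO 4 did not exceed the highest floxed heart, namely Foxm1, Aurkb, Incenp, Pttg1, Espl1, Cdca5, Spc24, Nusap1, Kif23, Smc2, Ncapd2, Ncaph and Top2a. The same comparison for 41 genes of DNA replication gave a median of 0.86 in cKO 4, 1.26 in cKO 5 and 2.21 in cKO 6. Of the 41, 11 lay above the floxed mean in cKO 4 and all 41 did so in cKO 6. In cKO 4 the 47 mitotic genes had a median of 1.42 and the replication genes one of 0.86, where all tested genes had 0.97. In floxed 1, floxed 2 and floxed 3 the replication genes had 0.89, 0.83 and 1.28, so cKO 4 lay within the floxed range. The mitotic genes had 0.92, 0.91 and 1.18 in the same floxed hearts.

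Other lists of the cell cycle, written from general knowledge and tested in the same fit, differed in size. Of 62 other mitotic genes tested, 61 had a positive log2 fold change, 16 were called higher and the median was 0.99. Knstrn, a kinetochore and spindle protein, went from 25.3 ± 2.25 to 71.8 ± 21.0 CPM (mean ± SD, n = 3 hearts per group), a log2 fold change of 1.499. Of the 41 DNA replication genes 39 had a positive log2 fold change, with a median of 0.51, and 1 was called. This was Dbf4, the activating subunit of the Cdc7 kinase, with a log2 fold change of 1.32 (SE 0.21, adjusted p = 0.0108). Rrm2, a subunit of ribonucleotide reductase, had 1.30 (SE 0.40, adjusted p = 0.0668). Of 25 core genes of the anaphase-promoting complex and cohesin none was called, the median was 0.07, and 4 rose with an adjusted p under 0.05. The smallest p belonged to Ube2s, an enzyme that extends ubiquitin chains for the complex, with a log2 fold change of 0.87 (SE 0.15, adjusted p = 0.0142), and the next to its subunit gene Cdc16, with 0.50. The 12 genes of the DREAM and MuvB complexes had a median of 0.05. Of these, Rbl2, the gene of the pocket protein p130, fell with a log2 fold change of -0.67 (SE 0.14, adjusted p = 0.0247), and E2f4 rose by 0.36 (SE 0.10, adjusted p = 0.0438), both by less than 2-fold.

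**Figure D3:**
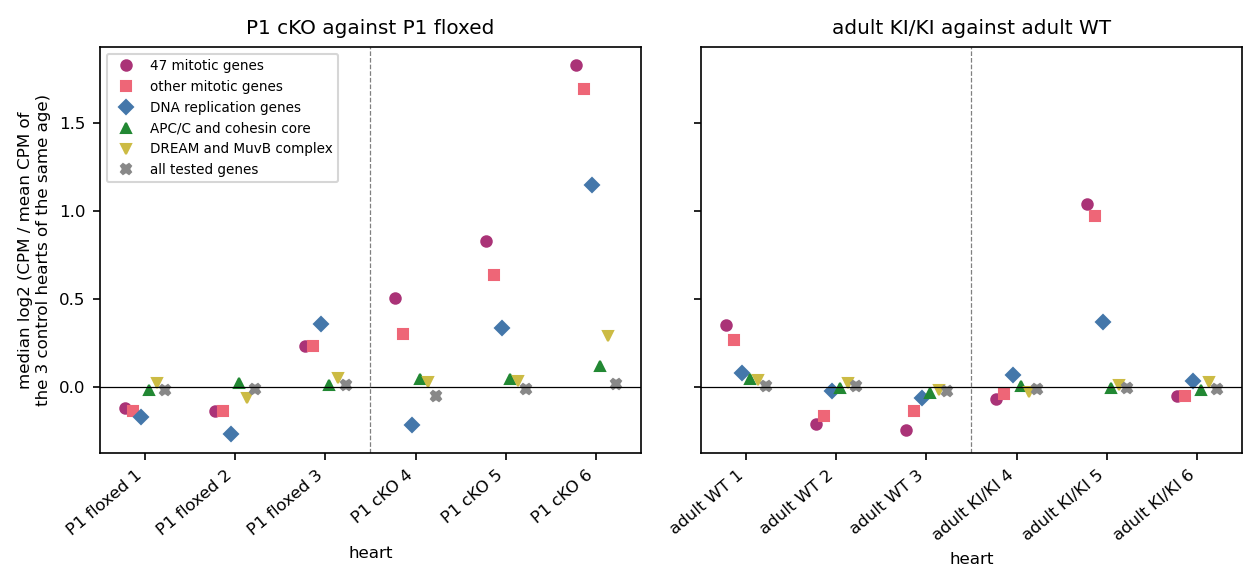
Median log2 ratio of CPM in each heart to the mean of the 3 control hearts of the same age, for the 47 mitotic genes, 4 other lists and all tested genes, with P1 hearts on the left and adult hearts on the right of the figure. In cKO 4 the mitotic genes lie above 0 and the DNA replication genes below it, as the latter also do in floxed 1 and floxed 2. In KI/KI 5 the mitotic lists stand apart from the other adult hearts.

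The comparison of KI/KI with WT hearts asked the same question for the mutation in the adult heart. No member was called. Of the 47 genes 46 passed the filter, Cdc25c failing it, and 44 of the 46 had positive log2 fold changes with a median of 0.40, beside 0.00 over all 14592 tested genes. None had an adjusted p under 0.05 in edgeR, DESeq2 or limma-voom. The share of all genes, in either direction, was 0% in edgeR, 0% in limma-voom and 3.56% in DESeq2. The lack of calls in edgeR and limma-voom is therefore not particular to these genes. With p-values left unadjusted 2 members had a p under 0.05 and were higher, Smc4 and Ncaph, beside 8.92% of all genes, and 1 lower, Cenpf, beside 7.28%. The 3 KI/KI hearts lay above all WT hearts in 3 of the 46 (Spc25, Smc4 and Ncaph, beside 11.4% of all genes) and below them in 1 (Pttg1, beside 10.4%).

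The positive median rested on 1 heart. KI/KI 5 had the highest level of the 6 adult hearts in 42 of the 47 genes, where it was the highest in 29.1% of all tested genes. Its median level relative to the WT mean was 2.06, against 0.96 in KI/KI 4 and 0.97 in KI/KI 6. Cdk1 was at 3.25, 1.86 and 1.69 CPM in WT hearts and at 2.09, 4.23 and 2.25 CPM in KI/KI hearts. Ccnb1 was at 1.03, 0.305 and 0.435 CPM and at 0.536, 2.25 and 0.759 CPM, and Mki67 at 33.2, 17.0 and 16.2 CPM and at 20.7, 43.3 and 20.0 CPM. In each of these genes KI/KI 5 was the highest heart and WT 1 the next, and the groups overlapped. WT 1 was the highest WT heart in 45 of the 47, with a median of 1.48 times the mean of WT 2 and WT 3. The share of all genes highest in WT 1 among WT hearts was not counted. Without KI/KI 5 the median log2 fold change was -0.04, with 19 positive and 27 negative values.

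Markers of fibroblasts moved with KI/KI 5. The 6 markers summed to 3814 CPM there and to 1579 to 2279 CPM in the other 5 adult hearts, with Postn, the matricellular periostin gene, at 442 CPM against 72.6 to 167 CPM. The 8 cardiomyocyte markers summed to 58390 CPM in KI/KI 5 and to 69854 to 84249 CPM in the others. Their part in the mitotic levels was not tested, and macrophage markers, at 471 CPM in KI/KI 5 and 243 to 397 CPM in the others, were also highest there.

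KI/KI 5 was the highest heart and WT 1 the next in 33 of the 47 genes, and the other 14 had another order. This order was not counted over all genes, of which 29.1% were highest in KI/KI 5 and 20.4% in WT 1. Ect2 was at 2.83, 1.71 and 1.33 CPM in WT hearts and at 1.67, 4.16 and 2.00 CPM in KI/KI hearts. Hmmr was at 2.54, 0.977 and 1.36 CPM and at 1.49, 4.96 and 1.43 CPM. In KI/KI 4 and KI/KI 6 together, 38 of the 47 genes lay within or below the WT range, a count not made over all genes. Smc4 was at 46.0, 45.4 and 42.7 CPM in WT hearts and at 47.4, 65.9 and 51.9 CPM in KI/KI hearts, without overlap (log2 fold change 0.31, SE 0.12, adjusted p = 0.303). Ncaph, the kleisin of condensin I, was at 2.38, 1.68 and 1.85 CPM and at 2.41, 4.50 and 2.64 CPM (log2 fold change 0.72, SE 0.29, adjusted p = 0.306). For both the gap between the groups was small beside the distance from KI/KI 5 to the other KI/KI hearts. Cdc25c was at 0.257, 0.214 and 0.0816 CPM in WT hearts and at 0.268, 0.556 and 0.478 CPM in KI/KI hearts, close to the floor of 3 counts in WT 3.

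Pttg1 and Cenpf went the other way in KI/KI hearts. Pttg1 (chr11:43420250-43426251) was at 69.3, 74.6 and 68.8 CPM in WT hearts and at 67.8, 4.65 and 34.3 CPM in KI/KI hearts (log2 fold change -0.999, SE 0.74, adjusted p = 0.508). KI/KI 4 was just below the lowest WT heart, KI/KI 6 was at 0.48 of the WT mean and KI/KI 5 at 0.07 of it. Slu7, a splicing gene beside Pttg1 on chromosome 11, was at 50.9 to 53.9 CPM in all 6 adult hearts. Cenpf (chr1:189640606-189688086) was at 95.3, 78.3 and 56.6 CPM in WT hearts and at 64.3, 22.1 and 19.8 CPM in KI/KI hearts (log2 fold change -1.12, SE 0.46, adjusted p = 0.307). KI/KI 5 and KI/KI 6 were below every WT heart, and KI/KI 4 was inside the WT range. Without KI/KI 4 the log2 fold change of Cenpf was -1.86 with an adjusted p of 0.042, the 1 call that any left-out heart produced among the members. In that fit 0.257% of all tested genes were called, where the fit of all 6 adult hearts called 0%. Ptpn14 and Kcnk2, which flank Cenpf on chromosome 1, were at 106 to 131 CPM and 4.90 to 7.27 CPM in adult hearts.

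Cenpa differed again. It was at 40.7, 39.0 and 37.5 CPM in WT hearts and at 40.3, 39.7 and 39.3 CPM in KI/KI hearts, a log2 fold change of 0.03 (SE 0.05), and KI/KI 5 did not stand out. The difference between the cKO effect and the KI/KI effect was tested in a fit of all 12 hearts. It was positive for all 47 genes with a median of 0.80, and it passed an adjusted p of 0.05 for 1, Cenpa, beside 2.43% of all tested genes. For Cenpa the difference was 1.24 (SE 0.26, adjusted p = 0.0381). No member passed when any of WT 1, WT 2, WT 3, KI/KI 5, KI/KI 6, floxed 1, floxed 2 or cKO 5 was left out. The share of members that passed, 1 of 47, was near that of all genes. In DESeq2 4 members differed by more than 2-fold between the effects, beside 2.36% of all genes. The largest difference was that of Cenpf, 2.28 (SE 0.64, adjusted p = 0.0835). For the other members the effects in the models were not shown to differ.

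**Figure D4:**
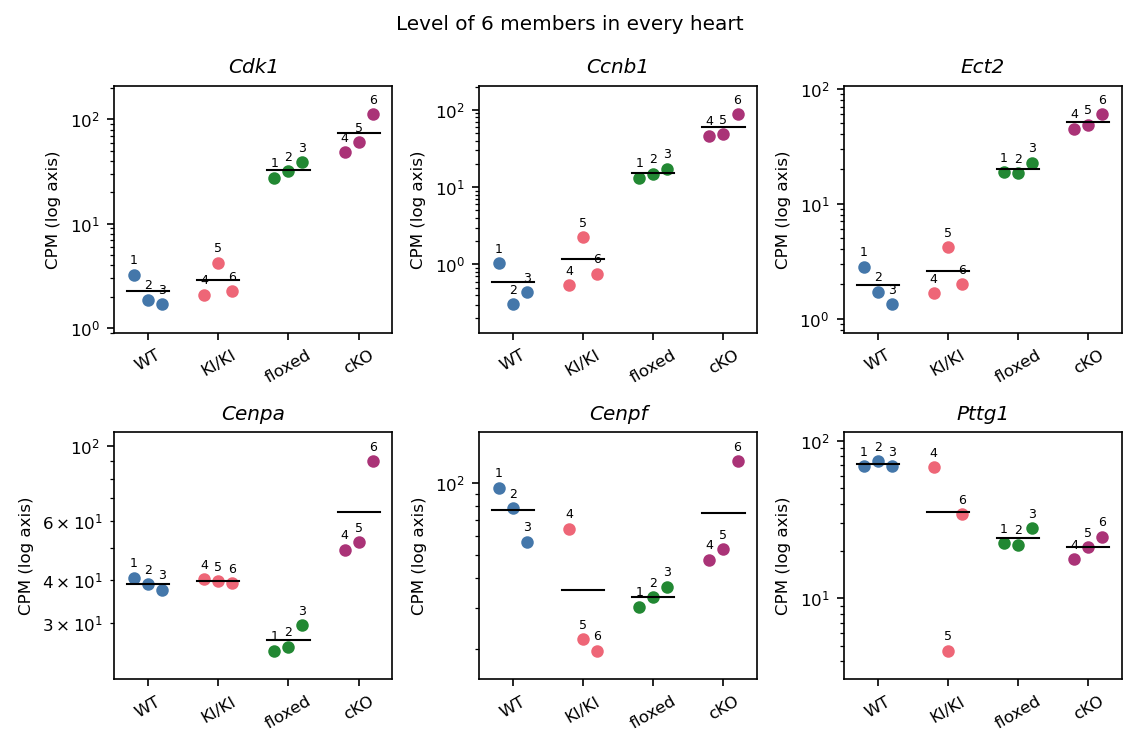
CPM on log axes of Cdk1, Ccnb1, Ect2, Cenpa, Cenpf and Pttg1 in every heart, with points numbered by heart, group means as lines and 3 hearts in each of the WT, KI/KI, floxed and cKO groups. Cdk1, Ccnb1 and Ect2 are higher at P1 than in adults and highest in cKO 6, while Cenpa, Cenpf and Pttg1 are higher in WT than in floxed hearts.

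Adult WT and P1 floxed hearts were set side by side to show the range that these genes cover between the ages of the study. Age and allele differ together here and cannot be told apart, and these hearts are the controls of the comparisons above. Adult WT hearts had lower levels of 44 of the 47 genes, with a median log2 fold change of -3.35, beside -0.04 over all 15183 tested genes. By adjusted p and fold change 43 were called lower, beside 13.9% of all genes, and 2 were called higher, beside 13.4%. On adjusted p alone all 44 lower genes passed, beside 33.4% of all genes, and Spc24 did not reach a 2-fold change. In the same 44 genes every floxed heart lay above every WT heart, as was the case in 5523 of all 15183 tested genes.

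By role, the median decline was steepest for mitotic entry genes (-3.93), which ranged from Foxm1 (-2.77) to Cdc25c. Cdc25c went from 5.21 ± 0.330 CPM in floxed hearts to 0.184 ± 0.0915 CPM in WT hearts (mean ± SD, n = 3 hearts per group), a log2 fold change of -4.85. Ccnb1 went from 15.2 ± 2.13 to 0.590 ± 0.386 CPM (log2 fold change -4.72), and Cdk1 from 32.8 ± 5.69 to 2.27 ± 0.855 CPM (log2 fold change -3.88). Chromosome structure genes declined least, with a median of -2.42. Mki67 went from 117 ± 24.5 to 22.1 ± 9.61 CPM (log2 fold change -2.42, SE 0.29), and Ncapd2, a condensin I subunit, from 77.3 ± 14.1 to 36.9 ± 3.54 CPM (log2 fold change -1.07, SE 0.14). In the other lists, 59 of 62 other mitotic genes and 34 of 41 DNA replication genes were called lower in WT hearts, and none of the 25 anaphase-promoting complex and cohesin genes was called.

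Pttg1, Cenpf and Cenpa were higher in WT than in floxed hearts. Pttg1 went from 24.1 ± 3.38 to 70.9 ± 3.21 CPM (mean ± SD, n = 3 hearts per group), with a log2 fold change of 1.55. Cenpf went from 33.3 ± 3.22 to 76.7 ± 19.4 CPM (log2 fold change 1.19), and Cenpa from 26.6 ± 2.57 to 39.1 ± 1.61 CPM (log2 fold change 0.55, adjusted p = 0.000831). Per length, in RPKM, the CPM divided by the exon length in kilobases, Pttg1 ranked sixth of the 47 in floxed hearts at 12.04 RPKM and the first in WT hearts at 35.4 RPKM, where the next were Smc4 at 8.58 and Cenpa at 6.67. In floxed hearts the highest levels per length were those of Smc4 (32.1 RPKM), Ccnb2 (13.7), Top2a (13.6) and Ccna2 (13.0), and the lowest that of Cdc25c (1.06).

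**Figure D5:**
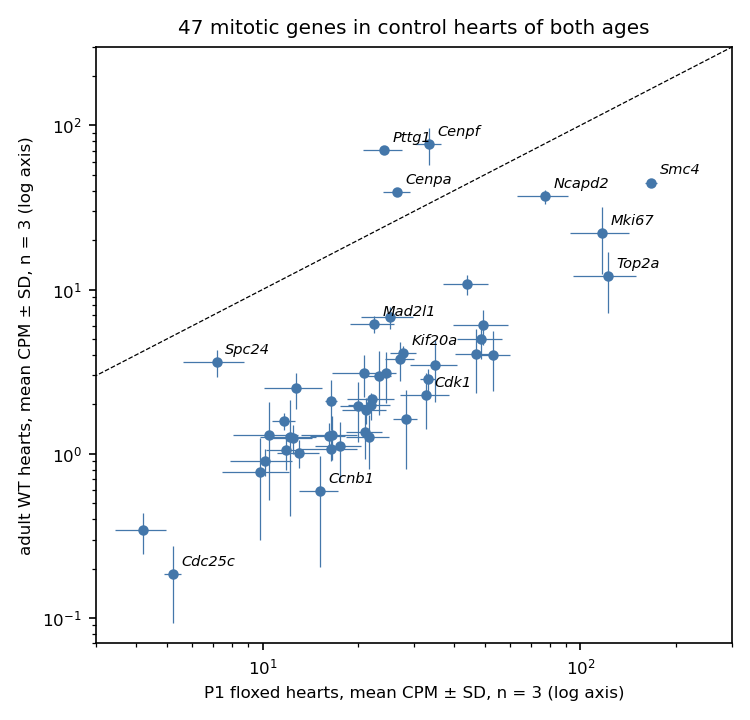
Mean CPM ± SD of the 47 mitotic genes in P1 floxed hearts (x axis) and adult WT hearts (y axis), 3 hearts each, on log axes with the line of equal levels dashed. Of the 47 genes, 44 lie below the line, and Pttg1, Cenpf and Cenpa lie above it.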

How the data were processed

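RNA-Seq of whole hearts was compared in 4 groups of 3 mice. The authors isolated polyadenylated RNA, sequenced single ends, used Trim Galore for trimming, STAR 2.7.2b for alignment to mm10, SAMtools 1.9 and, for counting per gene, HTSeq. The deposited values are raw counts, whole numbers without normalization.

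For each comparison the counts of its 6 libraries were fitted with edgeR 4.0.16 (R 4.3.3), after filterByExpr and TMM normalization, by the robust quasi-likelihood test, with Benjamini-Hochberg adjustment over all tested genes. CPM values are normalized over all 12 hearts. Exon lengths came from GENCODE annotation of GRCm38. Alternatives were DESeq2 1.42.0, limma-voom (limma 3.58.1), RLE size factors, other filters (none, or 10 counts per library), a fit of all 12 libraries, Y-linked and lung marker covariates, legacy dispersions and each heart left out. The tests were tried on simulated data with known changes.

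The members and lists were chosen with earlier results of these data known. Named are Cdk1, Mki67, the 3 members per role with the smallest p at P1, members against the shared direction, and at most 2 genes per other list and comparison. Other members are named to account for every role. Slu7, Ptpn14, Kcnk2, Ublcp1 and single marker genes were chosen after their values were seen. P-values measure the spread between 3 mice. Libraries of replicates were checked and none were identical.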

Additional observations from a re-analysis of the deposited data

Results flagged for a closer look

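Cenpa was flagged because the effects of genotype differed between the models by a test of the difference itself. The cKO effect minus the KI/KI effect was 1.24 on the log2 scale (SE 0.26, adjusted p = 0.0381, edgeR, all 12 hearts), with a cKO effect of 1.26, seen in 3 of 3 cKO hearts, and a KI/KI effect of 0.03. It was 1 of 47 members, near the 2.43% of all genes with such an adjusted p. Counting differences of more than 2-fold, each heart left out gave 0 or 1 member (1 without KI/KI 4, floxed 3 or cKO 4) beside 0.201% to 2.12% of all genes, and DESeq2 gave 4, beside 2.36%. Groups of 3 were not tested for single outlying hearts.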

How the results depend on the processing

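With each heart left out in turn, the members called ranged from 1 (without floxed 1) to 33 (without cKO 4) in cKO against floxed hearts, from 0 to 1 in KI/KI against WT hearts, from 44 to 46 in adult WT against P1 floxed hearts and from 0 to 1 for the difference between the cKO and KI/KI effects, where DESeq2 gave 4, beside 2.36% of all genes. Their median log2 fold changes ranged from 0.64 to 1.38, from -0.036 (without KI/KI 5) to 0.71 and from -3.62 to -3.15. In the adult comparison 14 of 156 values of named members changed sign, 13 of them without KI/KI 5 and that of Ncapg also without WT 3 (-0.04). The left-out hearts gave log2 fold changes for Anln -0.15 to 0.69, Bub1 -0.028 to 0.81, Bub1b -0.0045 to 0.73, Ccnb2 -0.0030 to 1.01, Cdca8 -0.12 to 0.77, Cdk1 -0.044 to 0.71, Cenpe -0.11 to 0.73, Ect2 -0.070 to 0.81, Hmmr -0.13 to 1.19, Kif20a -0.18 to 0.36, Kif2c -0.0072 to 1.24, Mki67 -0.11 to 0.76 and Ncapg -0.17 to 0.95. None changed sign in the other comparisons. Under the remaining alternatives the calls in cKO hearts numbered 17 (limma-voom and the lung covariate, where 2.45% and 2.76% of all genes were called higher) to 30 (DESeq2, the fit of all 12 libraries and the Y-linked covariate, where 3.34%, 3.48% and 2.31% were). Cdk1, Bub1b, Cdca8 and Smc4 each lost their adjusted p under at least 1 of them. The Y-linked covariate mainly marks cKO 4, so it is close to leaving that heart out. The lung covariate and legacy dispersions were chosen after seeing the data.

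With the replicate block, adult WT against P1 floxed hearts gave 45 calls and a median of -3.35, as without it. Deviations of same-numbered hearts had correlations of -0.23, -0.30 and -0.53, which cannot decide on pairing with 3 hearts per group. The numbers name different mice of different ages and do not pair them. In the 250 bases before the start alone, TTTGAA or TTCGAA was found in 42.1% of members (19.6% of all genes) and both elements in 36.8% (7.001%). Depth limits Cdc25c and Cdca5, which were under 1 CPM in all WT hearts.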

Other observations

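Ublcp1, a phosphatase gene on chromosome 11 chosen after its values were seen, was at 32.0, 31.0 and 29.2 CPM in WT hearts and at 29.8, 16.0 and 22.7 CPM in KI/KI hearts, the same order of the KI/KI hearts as that of Pttg1. In P1 hearts it was at 25.9 to 30.6 CPM. In the adult DNA replication list 36 of 41 genes had a positive log2 fold change, with a median of 0.12 and no call. Mcm2 and Mcm5, subunits of the replicative helicase, had values of 0.56 (SE 0.14, adjusted p = 0.213) and 0.49 (SE 0.17, adjusted p = 0.274) in edgeR's test.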
